A study of Arabidopsis thaliana with 36 samples.

Results

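The temperature response of Arabidopsis thaliana shoots was set between phyAB mutant and Col-0 wild-type seedlings, gene by gene, as a difference of differences. For each gene the log2 change of phyAB shoots at 27 °C over 21 °C was taken, and the same change in Col-0 shoots was subtracted. A positive response difference is therefore a more positive 27 °C response in phyAB, either a larger rise or a smaller fall. The comparison rests on 12 of the 36 RNA-seq libraries of the series, chosen by their labels for genotype, tissue and temperature: 3 of phyAB shoots at 27 °C, 3 of phyAB shoots at 21 °C, 3 of Col-0 shoots at 27 °C and 3 of Col-0 shoots at 21 °C. The series also holds hy5 mutant shoots and the roots of all 3 genotypes, of which the hy5 shoots shared the estimate of spread in the fit and the roots entered only the comparison of tissues.

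By its name the phyAB line lacks phytochromes A and B, receptors of red and far-red light. No label names its alleles. Seedlings had 16 h of light a day, and nights of 8 h at 21 °C followed days at 27 °C, while nights at 15 °C followed days at 21 °C, so the groups differ in night temperature as well. Shoots were taken 6 days after germination. The time spent at the higher temperature is given as 4 h in one description and as 3 days in another, so its length is not known here. Nothing in the labels says that replicates were grown as separate cultures, and p-values then measure only the spread between these samples. RNA came from whole shoots, where a smaller number of cells of a type and less RNA per cell cannot be told apart.

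Phytochromes are switched on by red light and off by far-red light, and the active form removes or inactivates the PIFs, basic helix-loop-helix transcription factors that drive elongation. Phytochrome B also reverts to its inactive form faster in the warm, so that it acts as a thermosensor, and PIF4 and PIF7 carry much of the elongation of seedlings at mild warmth. Without these receptors seedlings look as if they grew in deep shade. The comparison asks in which genes a further response to warmth is larger, smaller or turned round in such plants.

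Between 17387180 and 23880472 reads were counted in genes in each of the 12 libraries, and levels are given as counts per 1000000 counted reads (CPM). Photosynthesis genes averaged a log2 CPM of 11.43 to 12.17 in the 18 shoot libraries and of 0.39 to 3.81 in the 18 root libraries, so every library carried the level of its labelled tissue. PHYA (AT1G09570) had 37.9, 45.3 and 42.8 CPM in phyAB shoots at 27 °C and 20.99, 16.96 and 17.98 CPM in phyAB shoots at 21 °C. Col-0 shoots had 129, 148 and 145 CPM at 27 °C and 69.3, 67.3 and 79.6 CPM at 21 °C. Its transcript was thus lower in every phyAB library than in every Col-0 library, and its response difference of 0.21 ± 0.12 (SE, adjusted p = 0.399) did not pass the threshold. PHYB (AT2G18790) had 58.97, 64.7 and 57.5 CPM in phyAB shoots at 27 °C and 60.1, 61.8 and 61.2 CPM in phyAB shoots at 21 °C. The Col-0 values were 72.2, 66.96 and 65.2 CPM at 27 °C and 82, 86.8 and 69.3 CPM at 21 °C. All phyAB libraries lay below all Col-0 libraries, by a small margin, and the response difference of 0.21 ± 0.10 (SE, adjusted p = 0.295) did not pass either.

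Some libraries stood apart in ways the groups do not name. Transcripts of 19 seed storage and oil body genes summed to 215, 511 and 1224 CPM in phyAB shoots at 27 °C and to 349, 875 and 2364 CPM in phyAB shoots at 21 °C. In Col-0 they summed to 2.56 to 3.91 CPM at 27 °C and 3.51 to 4.65 CPM at 21 °C. Of these 19 genes, 1 was at 0 in each phyAB group, 3 were at 0 in Col-0 shoots at 27 °C and 4 in Col-0 shoots at 21 °C. The sum thus differed several-fold among the replicates of either phyAB group and was highest in the libraries numbered 3. The 27 °C libraries numbered 3 also had the largest share of reads aligned at more than 1 place, 28.8% in phyAB and 27.8% in Col-0, and the lowest share in the 12 was 8.29%. The part of either in the results was not tested.

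Of 20100 genes tested, 706 (3.51%) had a response difference with an adjusted p under 0.05 (Benjamini-Hochberg, quasi-likelihood test of edgeR). These genes are called different in what follows. The response was more positive in phyAB for 328 genes (1.63%) and more negative for 378 (1.88%), and the difference was at least 2-fold for 95 and 56 of them. At an unadjusted p under 0.05 there were 3715 genes. The responses themselves were far wider. In phyAB shoots 8721 genes (43.4%) changed at 27 °C, 4279 upward (21.3%) and 4442 downward (22.1%). In Col-0 shoots 9173 (45.6%) changed, 4514 upward (22.5%) and 4659 downward (23.2%). Across all genes tested the 2 responses, which share no library, had a Pearson r of 0.713 and a Spearman rho of 0.730, given as a description since genes are not independent replicates.

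Among the 328 genes with a more positive response the median log2 response was 0.05 in phyAB and -0.67 in Col-0, and among the 378 with a more negative response it was -0.26 in phyAB and 0.21 in Col-0. The order of these medians follows from how the genes were chosen. The number of genes called moved with single libraries. It was 273 without the Col-0 27 °C library numbered 2, 423 without number 3 of that group and 397 without the Col-0 21 °C library numbered 2. It was 455 and 466 without the phyAB 21 °C libraries numbered 2 and 3, 461 without the phyAB 27 °C library numbered 3, and 487 to 798 without any other single library. With the 4 libraries of these groups numbered 3 and the hy5 libraries numbered 3 all left out, 331 genes passed.

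**Figure D1:**
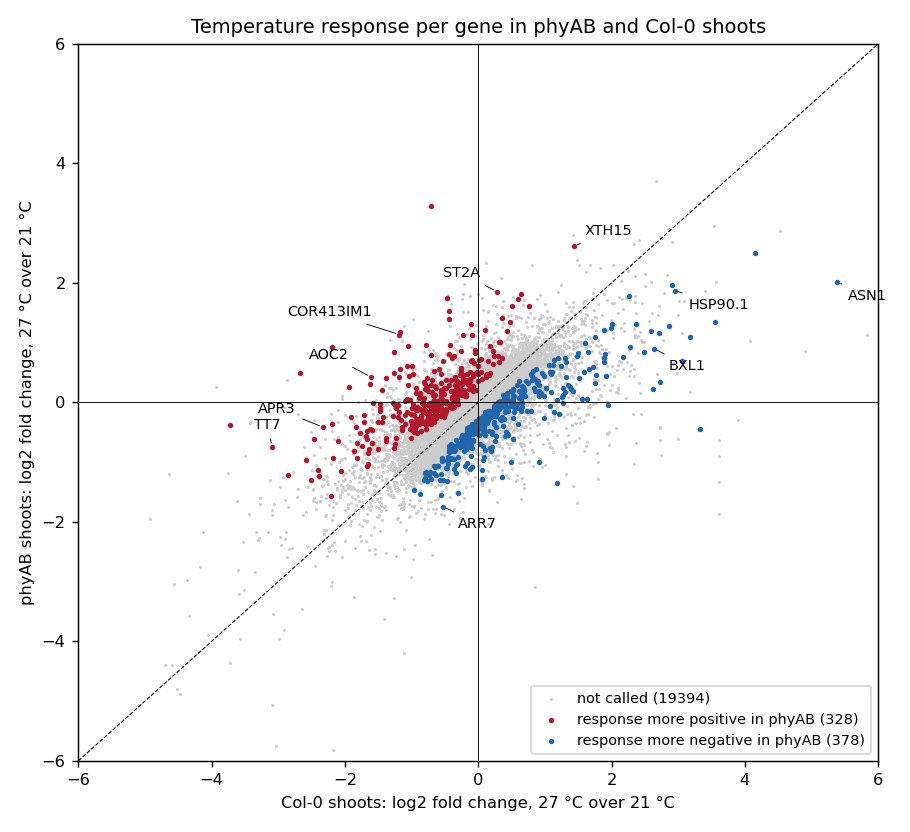
Each point is a gene, with its log2 fold change at 27 °C over 21 °C in phyAB shoots on the vertical axis and in Col-0 shoots on the horizontal axis, from 3 libraries per group; the dashed line marks equal responses. The 328 genes with a more positive response in phyAB (red) lie above the line, the 378 with a more negative one (blue) below it, and ASN1 and XTH15 lie on opposite sides among genes that were higher at 27 °C in both genotypes.

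To compare the size of the 2 responses over genes that neither had chosen, genes were picked by their response in hy5 shoots, whose libraries enter neither response. Over the 4638 genes that rose in hy5 shoots at 27 °C, the median log2 response was 0.33 in phyAB and 0.38 in Col-0. The SD between the 27 °C libraries alone was 0.0259 in phyAB and 0.0215 in Col-0. Over the 4519 genes that fell the median response was -0.41 in phyAB and -0.43 in Col-0. The SDs between the 27 °C libraries were 0.0374 in phyAB and 0.0355 in Col-0. These SDs leave out the spread between libraries at the lower temperature, and were taken on a different log2 scale from the medians. They are not SDs of the response and cannot be used to judge the gap between genotypes. Among all genes that rose in hy5 the change was smaller in phyAB for 2795 of 4638, and among all that fell for 2208 of 4519. The gap between the medians was larger among genes with at least a 2-fold change in hy5. The 535 genes that rose at least 2-fold had a median response of 0.84 in phyAB and 1.12 in Col-0, and the change was smaller in phyAB for 379 of them. For the 586 that fell the medians were -1.13 in phyAB and -1.28 in Col-0, and the change was smaller in phyAB for 361. No test was run on these medians. A choice by hy5 leaves out genes that respond only in phyAB or only in Col-0. It can also favour the genotype whose response is more like that of hy5. The medians therefore do not settle which genotype responds more.

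Several genes that plants switch on in shade responded more strongly to 27 °C in phyAB shoots. Of 22 such genes tested, 7 had a more positive response in phyAB (31.8%, against 1.63% of all genes) and 0 a more negative one, and the list's median response was 0.66 in phyAB and 0.29 in Col-0. In phyAB 14 members rose at 27 °C and 0 fell (against 21.3% and 22.1% of all genes), and in Col-0 9 rose and 3 fell (against 22.5% and 23.2%). The median response difference was 0.41, against -0.02 over all genes. Members were on the whole already higher in phyAB at 21 °C, with a median log2 ratio of phyAB to Col-0 of 1.88 at 27 °C and 1.35 at 21 °C, which was not tested for the list. This and the other gene lists, 27 in all, were chosen with earlier results of these data known. Their shares beside those of all genes are descriptions, with no test of any list.

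ST2A (AT5G07010), a sulfotransferase of hydroxyjasmonate, had 121, 122 and 118 CPM in phyAB shoots at 27 °C and 35.1, 32.4 and 32.1 CPM in phyAB shoots at 21 °C. In Col-0 shoots it had 2.001, 2.18 and 2.504 CPM at 27 °C and 2.24, 1.405 and 1.76 CPM at 21 °C. It was higher at 27 °C than at 21 °C in every phyAB library, while the Col-0 temperatures overlapped, and the response difference was 1.57 ± 0.20 (SE, adjusted p = 0.000467). HB-2 (AT4G16780), the homeodomain factor also known as ATHB2 and a classic shade marker, had 38.97, 46.3 and 32.4 CPM in phyAB shoots at 27 °C and 10.9, 12.1 and 10.4 CPM in phyAB shoots at 21 °C. Levels in Col-0 were 7.75, 6.14 and 6.48 CPM at 27 °C and 3.51, 4.92 and 4.74 CPM at 21 °C. Neither genotype overlapped between temperatures, and the response was larger in phyAB by 1.18 ± 0.22 (SE, adjusted p = 0.00693). These calls held in all fits that left out a single library.

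XTH15 (AT4G14130), a xyloglucan endotransglucosylase that acts on the cell wall, had 631, 864 and 706 CPM in phyAB shoots at 27 °C and 134, 118 and 108 CPM in phyAB shoots at 21 °C. In wild-type Col-0, levels were 8.42, 6.599 and 6.97 CPM at 27 °C and 2.92, 1.89 and 3.21 CPM at 21 °C. The gene rose in both genotypes, with log2 changes of 2.61 ± 0.16 in phyAB and 1.44 ± 0.23 in Col-0 and a difference of 1.18 ± 0.29 (SE, adjusted p = 0.0308). IAA19 (AT3G15540), a repressor of auxin signalling that auxin itself induces, had 67.1, 74.1 and 58.4 CPM in phyAB shoots at 27 °C and 42.8, 34.7 and 31.4 CPM in phyAB shoots at 21 °C. For Col-0 the values were 5.696, 5.63 and 4.95 CPM at 27 °C and 5.46, 4.21 and 7.0 CPM at 21 °C. It rose in phyAB, without overlap, and its Col-0 temperatures overlapped, with a difference of 0.92 ± 0.23 (SE, adjusted p = 0.0331). PIL1 (AT2G46970), a bHLH factor close to the PIFs, had 29.5, 32.8 and 24.1 CPM in phyAB shoots at 27 °C and 11.95, 12.1 and 10.8 CPM in phyAB shoots at 21 °C. Col-0 libraries had 0.718, 0.812 and 0.272 CPM at 27 °C and 0.762, 0.702 and 0.497 CPM at 21 °C. The phyAB temperatures did not overlap, the Col-0 values were all under 1 CPM at both temperatures, and the difference between genotypes was 1.41 ± 0.38 (SE, adjusted p = 0.0464).

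FHL (AT5G02200), which helps phytochrome A into the nucleus, had 4.3, 4.61 and 3.81 CPM in phyAB shoots at 27 °C and 2.96, 2.83 and 2.59 CPM in phyAB shoots at 21 °C, against at most 0.411 CPM in Col-0 shoots at 27 °C and at most 0.813 CPM at 21 °C, for a difference of 1.59 ± 0.41 (SE, adjusted p = 0.0425). CKX5 (AT1G75450), which breaks down cytokinin, had 33.9, 33.9 and 25.3 CPM in phyAB shoots at 27 °C and 11.7, 9.61 and 9.16 CPM in phyAB shoots at 21 °C, against 1.74, 1.62 and 1.69 CPM in Col-0 shoots at 27 °C and 1.65, 1.19 and 0.677 CPM in Col-0 shoots at 21 °C. Its difference was 1.103 ± 0.30 (SE, adjusted p = 0.048). Both genes rose in phyAB without overlap, while in Col-0 FHL, under 1 CPM throughout, fell by the test and CKX5 did not change by it. Among members that did not pass, HFR1, an inhibitor of PIFs, had a difference of 0.31 ± 0.22 (SE, adjusted p = 0.504), and PAR1, a related inhibitor, had -0.701 ± 0.22 (SE, adjusted p = 0.0878).

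The count of 7 was sensitive to single libraries. It was 2 without any one of the Col-0 27 °C libraries numbered 2 or 3, the phyAB 21 °C libraries numbered 2 or 3 and the phyAB 27 °C library numbered 2. It was 3 without the Col-0 21 °C or the phyAB 27 °C library numbered 1, 4 without the Col-0 21 °C library numbered 2, and 3 when only the 12 libraries entered the fit. The XTH15 call was lost in 7, the IAA19 call in 8, the CKX5 call in 9, and the FHL and PIL1 calls in 10 of the 12 fits without a single library, always with the same sign. Without the Col-0 21 °C library numbered 3 or the Col-0 27 °C library numbered 1, 1 member was called more negative, against 0.

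**Figure D2:**
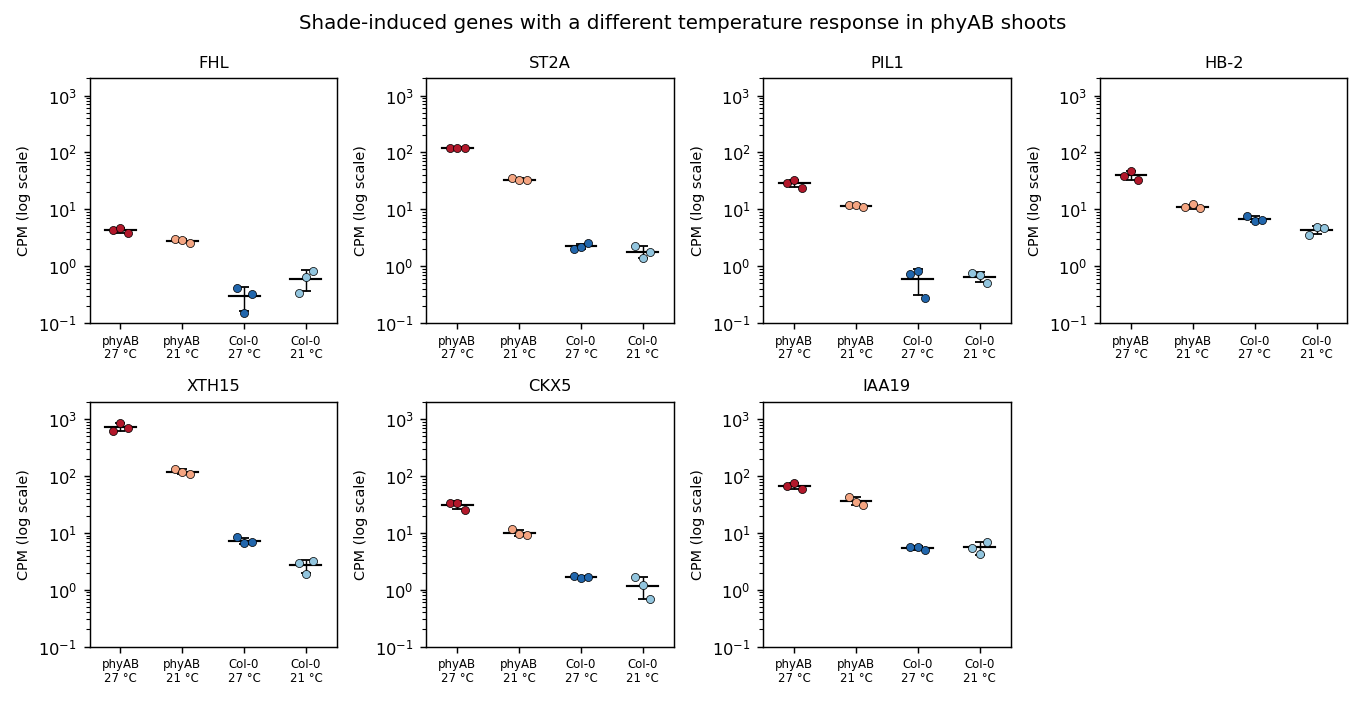
Levels in CPM (log axis) of the 7 shade-induced genes called different, for phyAB at 27 °C and 21 °C and Col-0 at 27 °C and 21 °C; points are libraries numbered 1 to 3 from left to right, bars the mean ± SD (n = 3). The phyAB values at 27 °C lie above those at 21 °C for all 7 genes, while for ST2A, IAA19, PIL1, FHL and CKX5 the Col-0 temperatures overlap or nearly meet.

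PIFs bind the G-box (CACGTG, the same on both strands) and the PBE-box (CATGTG on either strand), so the 250 bases before the annotated start of each gene were read from RefSeq's TAIR10.1 genome and searched for both. A G-box lay in this window for 7.55% of 20005 tested genes with a window, and in 2 of the 7 shade genes called, IAA19 and FHL. Both windows are printed because they carry these matches, in capitals, from 5′ to 3′ of the gene's strand. The window of IAA19 is chr3:5263751-5264000, plus strand, and that of FHL is chr5:437115-437364, plus strand. IAA19 has 1 G-box and 1 PBE-box, and FHL has 2 G-boxes.
IAA19: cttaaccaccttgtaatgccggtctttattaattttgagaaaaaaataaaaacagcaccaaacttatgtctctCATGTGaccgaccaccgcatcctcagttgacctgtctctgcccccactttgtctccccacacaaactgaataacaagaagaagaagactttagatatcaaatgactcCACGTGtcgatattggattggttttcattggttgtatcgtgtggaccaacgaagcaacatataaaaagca
FHL: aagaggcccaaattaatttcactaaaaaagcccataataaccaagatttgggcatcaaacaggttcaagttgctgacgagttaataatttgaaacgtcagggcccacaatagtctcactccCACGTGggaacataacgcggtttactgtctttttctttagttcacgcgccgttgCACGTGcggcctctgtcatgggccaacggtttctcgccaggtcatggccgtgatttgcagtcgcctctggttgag

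The windows of ST2A, HB-2, XTH15, PIL1 and CKX5 held neither motif, which says only that these letters are not in this stretch. Of all genes called, a G-box was in the window of 35 of the 328 with a more positive response (10.7%) and of 16 of the 378 with a more negative one (4.23%), beside the 7.55% of all genes. A PBE-box was in 12.8% and 10.6% of them, against 11.1% of all. A match is a description of the sequence and not a binding site, and no test was made of these shares.

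The receptors and the PIFs themselves gave 1 call. Of 12 phytochrome and PIF genes tested 0 had a more positive and 1 a more negative response in phyAB (8.33%, against 1.88% of all genes). That one was PIL5 (AT2G20180), better known as PIF1, a repressor of seed germination, with 28.7, 31.6 and 28.6 CPM in phyAB shoots at 27 °C and 28.3, 26.4 and 29.4 CPM in phyAB shoots at 21 °C. Its Col-0 levels were 30.2, 31.7 and 32.2 CPM at 27 °C and 22.4, 18.6 and 20.6 CPM at 21 °C. Its phyAB temperatures overlapped and its Col-0 temperatures did not, and the difference was -0.52 ± 0.10 (SE, adjusted p = 0.0101). PIF4, the central factor of warm-induced elongation, rose in both genotypes, by 0.53 ± 0.08 in phyAB (adjusted p = 2.87e-05) and by 0.402 ± 0.08 in Col-0 (adjusted p = 0.0004), and its difference of 0.13 ± 0.11 (SE, adjusted p = 0.593) did not pass. PIF7 fell in both, with a difference of 0.04 ± 0.10 (SE, adjusted p = 0.869). Of 31 genes of light signalling around HY5, 1 was called (3.23%, against 3.51% of all genes). It was the B-box factor BBX29 (AT5G54470), with a more positive response in phyAB. BBX29 had 9.19 ± 1.63 CPM in phyAB shoots at 27 °C and 8.27 ± 1.001 at 21 °C, against 1.79 ± 0.0956 in Col-0 shoots at 27 °C and 3.44 ± 0.206 at 21 °C (SD, n = 3). Its difference was 1.096 ± 0.23 (SE, adjusted p = 0.0152).

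Growth hormone lists held 1 or 2 called genes each. Their shares are given beside those of all genes, but rest on too few genes to be read as higher or lower. Of 24 genes of auxin synthesis and transport 2 were more positive (8.33%, against 1.63% of all genes) and 0 more negative. They were the efflux carrier PIN4 (AT2G01420), with a difference of 0.57 ± 0.13 (SE, adjusted p = 0.0182), and YUC2 (AT4G13260), a flavin monooxygenase that makes auxin, with 0.79 ± 0.20 (SE, adjusted p = 0.0388). PIN4 had 105, 115 and 98.6 CPM in phyAB shoots at 27 °C and 95.3, 82.2 and 80.2 CPM in phyAB shoots at 21 °C, against 56.5, 47.7 and 50.03 CPM in Col-0 shoots at 27 °C and 65.2, 57.3 and 62.9 CPM in Col-0 shoots at 21 °C. It thus rose in phyAB and fell in Col-0, without overlap in either. YUC8, the auxin synthesis gene that PIF4 is known to induce in the warm, rose in both genotypes, to 33.4 ± 3.97 CPM in phyAB at 27 °C, against 17.1 ± 1.39 CPM at 21 °C, and to 6.12 ± 0.7505 CPM in Col-0 at 27 °C, against 3.31 ± 0.322 CPM at 21 °C (SD, n = 3). Its response difference was 0.09 ± 0.16 (SE, adjusted p = 0.838). The PIN4 call was lost in 1 (without the Col-0 27 °C library numbered 2) and the YUC2 call in 11 of the 12 fits without a single library, and the list's count of 2 was 0 or 1 in those fits except without the Col-0 21 °C library numbered 3.

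Of 39 auxin response genes 1 was more positive and 1 more negative (5.13%, against 3.51% of all genes), the auxin-induced SAUR62 (AT1G29430) at 0.45 ± 0.12 (SE, adjusted p = 0.0486) and SAUR14 (AT4G38840) at -0.68 ± 0.13 (SE, adjusted p = 0.0099). The SAUR62 call was lost in all 12 fits without a single library. Gibberellin genes had 2 more positive of 20, against 1.63% of all genes. GA20OX1 (AT4G25420), which makes active gibberellin precursors, had 5.49, 4.31 and 4.18 CPM in phyAB shoots at 27 °C and 3.97, 3.28 and 3.26 CPM in phyAB shoots at 21 °C. Col-0 shoots had 2.41, 1.68 and 1.91 CPM at 27 °C and 5.55, 6.11 and 4.06 CPM at 21 °C. The phyAB libraries at 27 °C all lay above those at 21 °C, the Col-0 libraries at 27 °C all below those at 21 °C, and the difference was 1.797 ± 0.23 (SE, adjusted p = 0.000467). GA2OX6 (AT1G02400), which inactivates gibberellin, rose in phyAB and fell in Col-0 in the same way, with 9.87 ± 0.343 CPM in phyAB at 27 °C and 8.15 ± 0.322 at 21 °C, against 2.01 ± 0.0617 in Col-0 at 27 °C and 3.19 ± 0.411 at 21 °C (SD, n = 3), and a difference of 0.93 ± 0.15 (SE, adjusted p = 0.00266). Both gibberellin calls held in all 12 fits without a single library, and the GA2OX6 call was lost with all libraries numbered 3 left out.

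Of 14 brassinosteroid genes 1 was more positive (7.14%, against 1.63% of all genes), BR6OX2 (AT3G30180), which catalyses the last step to brassinolide. It had 38.2, 45.8 and 37.1 CPM in phyAB shoots at 27 °C and 33.9, 32.6 and 26.8 CPM in phyAB shoots at 21 °C. The Col-0 values were 19.8, 15.74 and 17.2 CPM at 27 °C and 25.7, 24.6 and 19.4 CPM at 21 °C. It rose in phyAB without overlap and fell in Col-0 by the test, with temperatures that overlapped, and had a difference of 0.78 ± 0.18 (SE, adjusted p = 0.0224) that was lost in 6 of the 12 fits without a single library. Of 24 expansins and xyloglucan enzymes that loosen walls 1 was more positive and 1 more negative (8.33%, against 3.51% of all genes). EXPA1 (AT1G69530), an expansin, had 196, 169 and 182 CPM in phyAB shoots at 27 °C and 222, 217 and 161 CPM in phyAB shoots at 21 °C. In Col-0 shoots it had 445, 425 and 387 CPM at 27 °C and 273, 239.8 and 289 CPM at 21 °C. It rose in Col-0 without overlap and its phyAB temperatures overlapped, with a difference of -0.79 ± 0.16 (SE, adjusted p = 0.0144). XTH31 (AT3G44990) fell in both genotypes, less in phyAB, by a difference of 0.61 ± 0.15 (SE, adjusted p = 0.0303). The EXPA1 call held in all 12 fits without a single library and the XTH31 call was lost in 8. The wall list had 3 more negative members without the Col-0 21 °C library numbered 3 or the phyAB 21 °C library numbered 1. It had 2 more positive ones without the Col-0 27 °C library numbered 1 or the phyAB 21 °C library numbered 1. It had 0 more positive ones without any one of the Col-0 21 °C libraries numbered 1 or 2, the Col-0 27 °C libraries numbered 2 or 3, the phyAB 21 °C libraries numbered 2 or 3 and the phyAB 27 °C libraries numbered 1 or 3.

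Among the lists, the most genes with a more negative response in phyAB were found in a list of genes tied to sugar shortage. Most of them are known to be switched on in the dark or under the energy-sensing kinase SnRK1, and the list also holds APL3, which sugar induces. Of 26 members tested 10 had a more negative response in phyAB (against 1.88% of all genes) and 2 a more positive one. Most members rose in both genotypes, with 22 members higher and 1 lower at 27 °C in phyAB and 22 higher and 2 lower in Col-0. Among all genes 21.3% rose and 22.1% fell in phyAB, and 22.5% rose and 23.2% fell in Col-0. The median response was 0.86 in phyAB and 1.48 in Col-0, and the median response difference -0.60. At 21 °C members were already higher in phyAB, with a median log2 ratio of phyAB to Col-0 of 0.47 at 27 °C and 1.03 at 21 °C, which was not tested for the list.

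ASN1 (AT3G47340), an asparagine synthetase induced in the dark, had 49.3, 123 and 70.3 CPM in phyAB shoots at 27 °C and 10.9, 24.8 and 24.2 CPM in phyAB shoots at 21 °C. Levels in Col-0 were 20.2, 45.99 and 52.3 CPM at 27 °C and 0.508, 0.8105 and 1.49 CPM at 21 °C. Every phyAB library at 21 °C lay above every Col-0 library at 21 °C, the 27 °C libraries overlapped between genotypes, and the response was smaller in phyAB, with a difference of -3.37 ± 0.69 (SE, adjusted p = 0.013). BXL1 (AT5G49360), a beta-xylosidase, had 544, 681 and 599 CPM in phyAB shoots at 27 °C and 241, 383 and 354 CPM in phyAB shoots at 21 °C. In wild-type Col-0, levels were 463, 673 and 635 CPM at 27 °C and 95.8, 75.97 and 112 CPM at 21 °C. At 27 °C the genotypes overlapped and at 21 °C they did not, and the difference was -1.74 ± 0.24 (SE, adjusted p = 0.000803). DIN10 (AT5G20250), a dark-inducible gene of the raffinose synthase family, had 398, 548 and 502 CPM in phyAB shoots at 27 °C and 156, 237 and 256 CPM in phyAB shoots at 21 °C. For Col-0 the values were 479, 798 and 875 CPM at 27 °C and 111, 81.1 and 136 CPM at 21 °C. Again all phyAB libraries at 21 °C lay above those of Col-0, with a difference of -1.55 ± 0.31 (SE, adjusted p = 0.0102).

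TPS9 (AT1G23870), of the class of trehalose phosphate synthase proteins without known enzyme activity, had 75.9, 78.4 and 79.2 CPM in phyAB shoots at 27 °C and 47.6, 55.1 and 52.3 CPM in phyAB shoots at 21 °C. Col-0 libraries had 49.7, 66.4 and 61.1 CPM at 27 °C and 18.6, 15.5 and 19.6 CPM at 21 °C. Every phyAB library lay above every Col-0 library at 27 °C and at 21 °C alike, and the response was smaller in phyAB, with a difference of -1.13 ± 0.15 (SE, adjusted p = 0.000467). The related TPS11 (-1.203 ± 0.24), TPS8 (-0.803 ± 0.19) and TPS10 (-0.59 ± 0.15, log2 difference ± SE) were called with adjusted p of 0.0118, 0.0245 and 0.0413. BGAL4 (AT5G56870), a beta-galactosidase, had 371, 410.1 and 429.9 CPM in phyAB shoots at 27 °C and 123, 212 and 196 CPM in phyAB shoots at 21 °C. Its Col-0 levels were 103, 172 and 170.2 CPM at 27 °C and 24.9, 18.4 and 30.6 CPM at 21 °C. Here phyAB was higher than Col-0 at both temperatures without overlap, and the difference was -1.398 ± 0.28 (SE, adjusted p = 0.0121). The growth-related EXL2 (-0.64 ± 0.17, adjusted p = 0.0495) and the SnRK1 subunit AKINBETA1 (-0.67 ± 0.18, adjusted p = 0.0465) complete the 10.

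The 2 members with a more positive response did not follow the rest of the list. APL3 (AT4G39210), a subunit of the starch synthesis enzyme ADP-glucose pyrophosphorylase, had 14.8, 15.2 and 15.3 CPM in phyAB shoots at 27 °C and 25.4, 26 and 19.1 CPM in phyAB shoots at 21 °C. Col-0 shoots had 13.7, 7.31 and 9.201 CPM at 27 °C and 39.1, 52.3 and 39.4 CPM at 21 °C. It fell in both genotypes, less in phyAB, by 1.47 ± 0.24 (SE, adjusted p = 0.00293). EXL4 (AT5G09440), close to EXL2, rose to 41.2 ± 1.56 CPM in phyAB at 27 °C, against 29.01 ± 2.47 CPM at 21 °C, and had 9.49 ± 0.537 CPM in Col-0 at 27 °C and 9.23 ± 0.858 CPM at 21 °C (SD, n = 3), with a difference of 0.47 ± 0.11 (SE, adjusted p = 0.0249). SEN1, a gene of ageing leaves with the largest phyAB response of the list (2.86 ± 0.27, against 4.52 ± 0.39 in Col-0), missed the threshold with -1.66 ± 0.50 (SE, adjusted p = 0.0772). The count of 10 was 6 without any one of the Col-0 21 °C library numbered 2, the Col-0 27 °C libraries numbered 2 or 3 and the phyAB 27 °C library numbered 3, and 5 with all libraries numbered 3 left out. BXL1, DIN10, TPS9, ASN1, BGAL4, TPS11 and APL3 were called in all 12 fits without a single library, while TPS10 and EXL2 were lost in 10 of them each, AKINBETA1 in 8, EXL4 in 6 and TPS8 in 4.

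**Figure D3:**
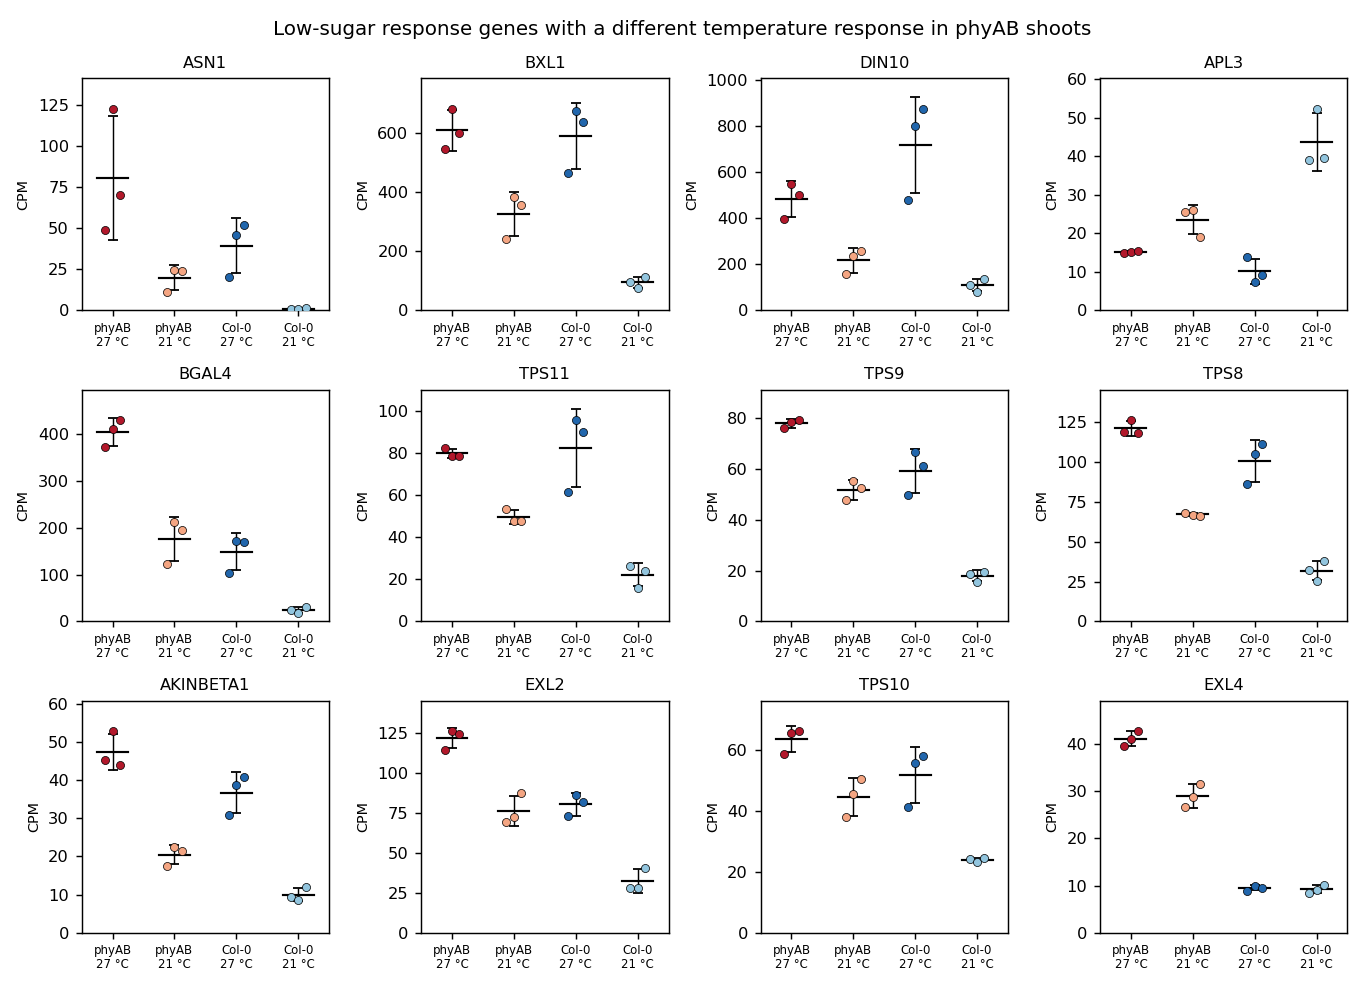
Levels in CPM of the 12 low-sugar response genes called different, for phyAB at 27 °C and 21 °C and Col-0 at 27 °C and 21 °C; points are libraries numbered 1 to 3 from left to right, bars the mean ± SD (n = 3). In the panels of the 10 genes with a more negative response the mean of Col-0 at 21 °C is the lowest of the 4 groups, while APL3 is lowest in Col-0 at 27 °C and EXL4 is higher in phyAB than in Col-0 at both temperatures.

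Among 34 chaperones and factors of the heat shock response, 17 rose at 27 °C in phyAB and 18 in Col-0 (against 21.3% and 22.5% of all genes). The list is not the whole family. It left out HSP17.6B, HSP23.5, HSP26.5, HSP15.7, HSP17.8, HSP17.6C and HSC70-3, whose names were not matched in the reference. The response of 5 of the 34 was more negative in phyAB (against 1.88% of all genes). The list also had 6 members that fell in phyAB and 5 that fell in Col-0 (against 22.1% and 23.2% of all genes). Its median response was 0.39 in phyAB and 0.56 in Col-0. No member had a more positive response by the test, and the median difference was -0.22. HSP90.1 (AT5G52640), a cytosolic chaperone, had 43.5, 39.9 and 49.2 CPM in phyAB shoots at 27 °C and 9.75, 11.1 and 15.3 CPM in phyAB shoots at 21 °C. The Col-0 values were 60.1, 58.99 and 51.9 CPM at 27 °C and 7.75, 8.59 and 5.92 CPM at 21 °C. It rose in both, and less in phyAB, with a difference of -1.08 ± 0.22 (SE, adjusted p = 0.0121). HSP70 (AT3G12580), a chaperone of the cytosol, had 117, 86.02 and 106 CPM in phyAB shoots at 27 °C and 23.2, 25.1 and 30.7 CPM in phyAB shoots at 21 °C. In Col-0 shoots it had 141, 134 and 112 CPM at 27 °C and 20.2, 17.5 and 13.6 CPM at 21 °C. The difference was -0.95 ± 0.23 (SE, adjusted p = 0.0316). For both genes the phyAB libraries at 21 °C all lay above those of Col-0. At 27 °C those of HSP90.1 all lay below Col-0 and those of HSP70 overlapped with it.

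HSFA7A (AT3G51910), a heat shock factor, had 7.41, 10.8 and 8.46 CPM in phyAB shoots at 27 °C and 10.3, 10.9 and 10.98 CPM in phyAB shoots at 21 °C. Levels in Col-0 were 4.67, 8.02 and 8.06 CPM at 27 °C and 3.39, 2.76 and 4.25 CPM at 21 °C. It rose in Col-0, its change in phyAB did not pass, and the difference was -1.25 ± 0.27 (SE, adjusted p = 0.016). The disaggregase HSP101 (AT1G74310) rose in both genotypes with a difference of -0.67 ± 0.17 (SE, adjusted p = 0.0347), and the immunophilin ROF1 (AT3G25230) had one of -0.26 ± 0.07 (SE, adjusted p = 0.0449). The HSP90.1 call held in all 12 fits without a single library, the HSFA7A call was lost in 1, the HSP70 call in 8, the HSP101 call in 9 and the ROF1 call in 11. The count of 5 was 1 without the Col-0 27 °C library numbered 2, 3 without number 3 of that group, and 2 without any one of the Col-0 27 °C library numbered 1, the Col-0 21 °C libraries numbered 2 or 3, the phyAB 21 °C libraries numbered 2 or 3 and the phyAB 27 °C library numbered 2. It was 1 with all libraries numbered 3 left out and 8 with the replicate number as a block.

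The promoter window of HSFA7A is shown because it was the only one of these 5 with the heat shock element core GAANNTTC (the same on both strands), which it holds at 2 places, in capitals (chr3:19264891-19265140, plus strand, TAIR10.1, RefSeq). The core was in 9.19% of all windows. Its absence from the windows of HSP90.1, HSP70, HSP101 and ROF1 says only that these letters are not in those stretches.
HSFA7A: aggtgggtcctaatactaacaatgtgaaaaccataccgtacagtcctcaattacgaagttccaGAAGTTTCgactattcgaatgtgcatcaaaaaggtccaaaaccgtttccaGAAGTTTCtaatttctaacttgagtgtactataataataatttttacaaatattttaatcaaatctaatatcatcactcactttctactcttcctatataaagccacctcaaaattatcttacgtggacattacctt

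Small heat shock proteins also made in seeds had the largest differences of the list and missed the threshold. HSP17.4 had 5.95, 13.6 and 24.9 CPM in phyAB shoots at 27 °C and 2.77, 7.71 and 13.96 CPM in phyAB shoots at 21 °C. In wild-type Col-0, levels were 2.36, 1.88 and 1.91 CPM at 27 °C and 0.0423, 0.05403 and 0.0903 CPM at 21 °C. Its phyAB values differed among replicates in the same order as the summed seed transcripts, and the difference was -4.06 ± 1.34 (SE, adjusted p = 0.105). HSP17.6A had 4.99, 15.8 and 31.2 CPM in phyAB at 27 °C and 7.22, 20.4 and 35.5 CPM in phyAB shoots at 21 °C, against 1.44, 1.17 and 1.14 CPM in Col-0 at 27 °C and 0.0423, 0.05403 and 0.135 CPM in Col-0 shoots at 21 °C, with the same order among phyAB replicates and a difference of -4.19 ± 1.67 (SE, adjusted p = 0.184). The Col-0 values of both genes at 21 °C rest on 1 to 3 reads a library, so the size of either difference is poorly fixed. The part of seed transcripts in these values was not tested. Of 16 genes of the unfolded protein response of the endoplasmic reticulum 0 were called in either direction by edgeR or DESeq2 (0 at an unadjusted p under 0.05). By edgeR 3.51% of all genes were called. In phyAB 11 of the 16 rose and in Col-0 9 did (against 21.3% and 22.5% of all genes).

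Genes of jasmonate synthesis and response were mostly lower at 27 °C in Col-0 shoots, and 4 had a more positive response in phyAB. Of 17 jasmonate genes 4 had a more positive response in phyAB (against 1.63% of all genes) and 0 a more negative one, and the median response was 0.03 in phyAB and -0.71 in Col-0. By the test within each genotype 2 rose and 3 fell in phyAB (against 21.3% and 22.1% of all genes), and 1 rose and 10 fell in Col-0 (against 22.5% and 23.2%). AOC2 (AT3G25770), an allene oxide cyclase of the pathway, had 129, 137 and 119 CPM in phyAB shoots at 27 °C and 82.5, 104 and 99.8 CPM in phyAB shoots at 21 °C. For Col-0 the values were 58.1, 37.5 and 50.4 CPM at 27 °C and 126, 168 and 152 CPM at 21 °C. It was higher at 27 °C in phyAB and lower at 27 °C in Col-0, without overlap in either, and the difference was 2.04 ± 0.23 (SE, adjusted p = 0.000197). AOS (AT5G42650), the allene oxide synthase before it, had 115, 105 and 99.2 CPM in phyAB shoots at 27 °C and 99.2, 104 and 90.6 CPM in phyAB shoots at 21 °C. Col-0 libraries had 108, 72.1 and 82.3 CPM at 27 °C and 141, 191 and 151 CPM at 21 °C. The phyAB temperatures overlapped and the Col-0 temperatures did not, with a difference of 0.996 ± 0.20 (SE, adjusted p = 0.0101). LOX3 (AT1G17420), a lipoxygenase at the start of the pathway, and AOC1 (AT3G25760) fell in Col-0 and had differences of 0.75 ± 0.16 (SE, adjusted p = 0.0144) and 1.27 ± 0.28 (SE, adjusted p = 0.0186). The 4 calls became 2 with all libraries numbered 3 left out, and were 3 to 6 without a single library; AOC1 was lost in 2 of those 12 fits and the other 3 genes in 0.

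Most cold-regulated genes fell at 27 °C in both genotypes, and 5 had a more positive response in phyAB. Of 16 tested, 2 rose and 9 fell in phyAB (against 21.3% and 22.1% of all genes) and 0 rose and 13 fell in Col-0 (against 22.5% and 23.2%). The 5 (against 1.63% of all genes) stood beside 0 with a more negative response, and the median difference was 0.42. COR413IM1 (AT1G29395), a protein of the chloroplast envelope, had 18.02, 24.2 and 23.1 CPM in phyAB shoots at 27 °C and 7.36, 12.4 and 9.83 CPM in phyAB shoots at 21 °C. Its Col-0 levels were 2.21, 2.23 and 3.59 CPM at 27 °C and 3.64, 4.92 and 9.62 CPM at 21 °C. It rose in phyAB and fell in Col-0 by the test, with Col-0 values that came close to each other, and the difference was 2.32 ± 0.51 (SE, adjusted p = 0.0181). KIN2 (AT5G15970), a small cold-induced protein, had 5.26, 7.06 and 5.71 CPM in phyAB shoots at 27 °C and 10.4, 10.14 and 9.54 CPM in phyAB shoots at 21 °C. Col-0 shoots had 9.85, 8.12 and 8.49 CPM at 27 °C and 32.8, 31.1 and 25.2 CPM at 21 °C. It fell in both without overlap, and less in phyAB by 1.02 ± 0.17 (SE, adjusted p = 0.00435). ERD10 (AT1G20450), a dehydrin that protects membranes and proteins, had 52.1 ± 4.196 CPM in phyAB shoots at 27 °C and 58.4 ± 3.47 at 21 °C, against 30.2 ± 1.09 in Col-0 shoots at 27 °C and 63.6 ± 3.14 at 21 °C (SD, n = 3), with a difference of 0.91 ± 0.16 (SE, adjusted p = 0.00462).

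GolS3 (AT1G09350), a galactinol synthase, and CT-BMY (AT4G17090), a chloroplast beta-amylase, complete the cold genes called, with differences of 1.16 ± 0.30 (SE, adjusted p = 0.0399) and 0.63 ± 0.17 (SE, adjusted p = 0.0483). KIN2 and ERD10 were called in all 12 fits without a single library, COR413IM1 was lost in 1, GolS3 in 9 and CT-BMY in 11. The count of 5 was 2 without the Col-0 27 °C library numbered 2 and 3 without any one of the Col-0 27 °C library numbered 1, the Col-0 21 °C libraries numbered 1 or 2, the phyAB 21 °C libraries numbered 1 or 2 and any phyAB 27 °C library. It was also 3 when only the 12 libraries entered the fit.

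**Figure D4:**
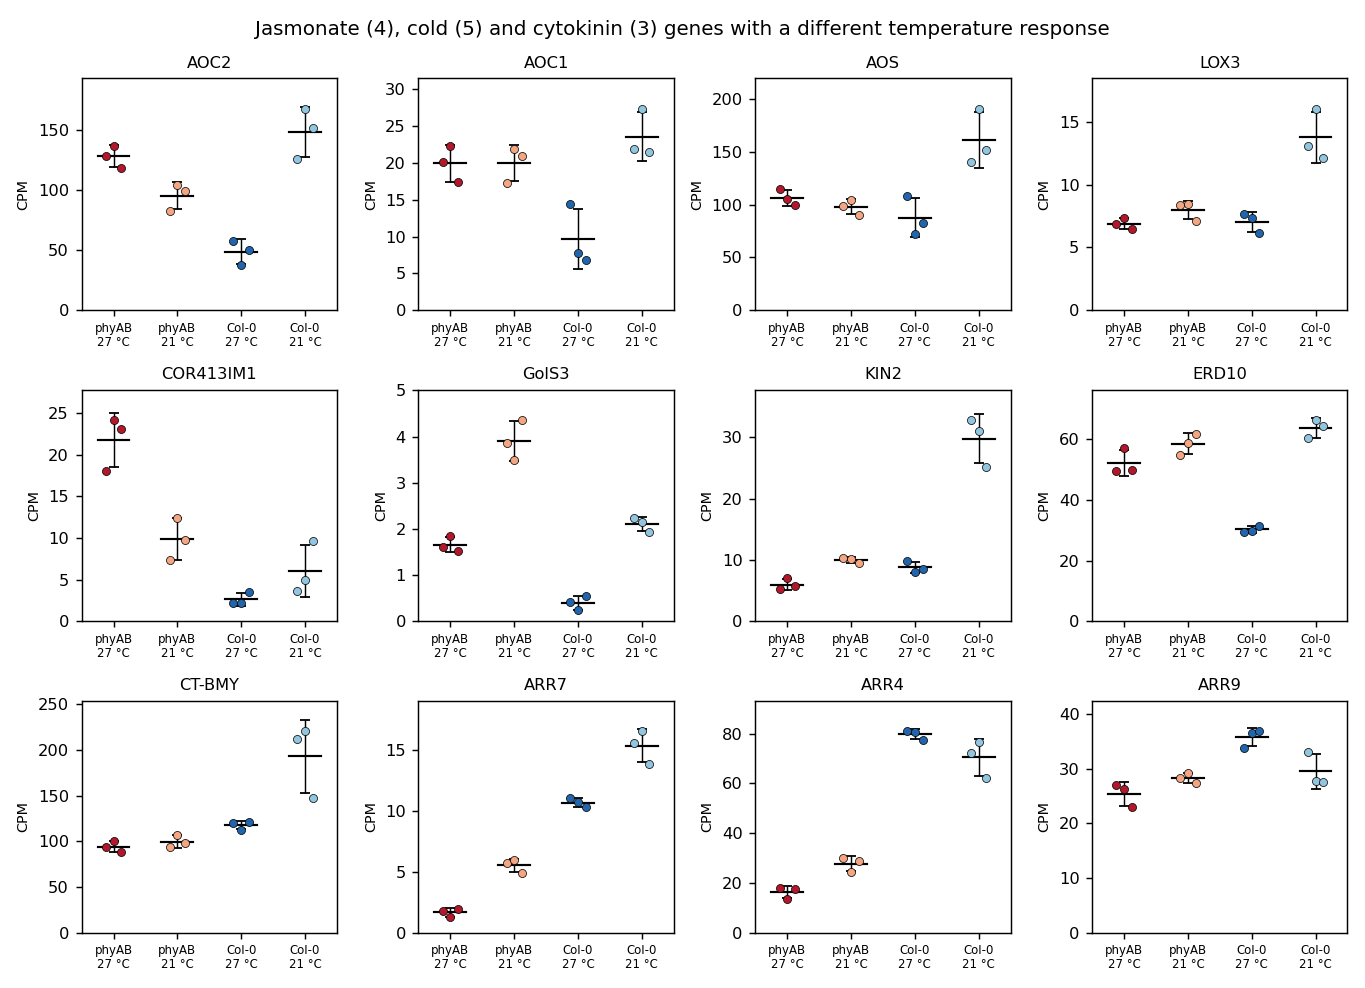
Levels in CPM of the genes called different in the jasmonate list (AOC2, AOC1, AOS, LOX3), the cold list (COR413IM1, GolS3, KIN2, ERD10, CT-BMY) and the cytokinin list (ARR7, ARR4, ARR9), for phyAB at 27 °C and 21 °C and Col-0 at 27 °C and 21 °C; points are libraries numbered 1 to 3 from left to right, bars the mean ± SD (n = 3). AOC2 and COR413IM1 are higher at 27 °C than at 21 °C in phyAB and lower at 27 °C in Col-0, and ARR7 and ARR4 are lowest in phyAB at 27 °C.

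Most flavonoid and anthocyanin genes fell at 27 °C, and 4 members had a more positive response in phyAB, where the list stood lower at 21 °C by a median log2 ratio to Col-0 of -1.06. Of 27 tested, 1 rose and 20 fell in phyAB (against 21.3% and 22.1% of all genes) and 1 rose and 24 fell in Col-0 (against 22.5% and 23.2%). The median response was -1.21 in phyAB and -2.10 in Col-0. The 4 (14.8%, against 1.63% of all genes) stood beside 0 with a more negative response. TT7 (AT5G07990), the flavonoid hydroxylase of the B ring, had 3.202, 3.27 and 2.48 CPM in phyAB shoots at 27 °C and 6.98, 3.99 and 4.17 CPM in phyAB shoots at 21 °C. The Col-0 values were 5.23, 4.21 and 3.702 CPM at 27 °C and 43.5, 52.03 and 17.43 CPM at 21 °C. All phyAB libraries lay below all Col-0 libraries at either temperature, by far more at 21 °C, and the difference was 2.35 ± 0.57 (SE, adjusted p = 0.0299). CHIL (AT5G05270), a chalcone isomerase-like helper of the pathway, had 20.6, 18.7 and 17.5 CPM in phyAB shoots at 27 °C and 48.01, 47.8 and 36.1 CPM in phyAB shoots at 21 °C. In Col-0 shoots it had 21.7, 11.4 and 10.9 CPM at 27 °C and 111, 141 and 68.2 CPM at 21 °C. Its difference was 1.64 ± 0.35 (SE, adjusted p = 0.0159). Chalcone isomerase TT5 and the flavonoid transporter DTX35 had differences of 1.05 ± 0.27 (SE, adjusted p = 0.041) and 0.48 ± 0.11 (SE, adjusted p = 0.0263).

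The chalcone synthase TT4, which starts the flavonoid pathway, had 24.3, 15.5 and 22.9 CPM in phyAB shoots at 27 °C and 195, 141 and 103 CPM in phyAB shoots at 21 °C. Levels in Col-0 were 49.9, 34.8 and 27.8 CPM at 27 °C and 519.9, 605 and 244 CPM at 21 °C. Its difference of 0.795 ± 0.40 (SE, adjusted p = 0.31) did not pass. The Col-0 21 °C library numbered 3 was the lowest of its group for TT7, CHIL, TT5 and TT4. The TT7 and DTX35 calls were each lost in 7, the TT5 call in 9 and the CHIL call in 1 of the 12 fits without a single library. Without the Col-0 21 °C library numbered 3, 10 members were called, and 7 without the Col-0 27 °C library numbered 1. The count was 0 without the Col-0 27 °C library numbered 2 and 1 without any one of number 3 of that group, the Col-0 21 °C library numbered 2 and the phyAB 21 °C libraries numbered 2 or 3. It was 2 without the Col-0 21 °C library numbered 1 or any phyAB 27 °C library, and 9 with the replicate number as a block.

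Some response regulators that cytokinin induces had a more negative response in phyAB. Of 8 cytokinin response genes tested 3 had a more negative response in phyAB (against 1.88% of all genes) and 0 a more positive one. ARR7 (AT1G19050), a type-A response regulator that dampens cytokinin signalling, had 1.78, 1.25 and 1.96 CPM in phyAB shoots at 27 °C and 5.69, 5.98 and 4.89 CPM in phyAB shoots at 21 °C. In wild-type Col-0, levels were 11.03, 10.7 and 10.3 CPM at 27 °C and 15.6, 16.6 and 13.9 CPM at 21 °C. The 4 groups did not overlap, with phyAB at 27 °C the lowest, and the difference was -1.22 ± 0.17 (SE, adjusted p = 0.000803). ARR4 (AT1G10470), which also binds phytochrome B, had 17.9, 13.5 and 17.61 CPM in phyAB shoots at 27 °C and 29.98, 24.4 and 28.9 CPM in phyAB shoots at 21 °C. For Col-0 the values were 81.1, 80.9 and 77.5 CPM at 27 °C and 72.4, 76.8 and 62.3 CPM at 21 °C. It fell in phyAB without overlap, and in Col-0 all libraries at 27 °C lay above those at 21 °C by a change that did not pass, and the difference was -0.95 ± 0.14 (SE, adjusted p = 0.00188). ARR9 (AT3G57040), of the same class, had a difference of -0.43 ± 0.11 (SE, adjusted p = 0.0464), which was lost in 9 of the 12 fits without a single library; the other 2 calls held in all of them.

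Genes of ribosome assembly fell at 27 °C in all 10 cases tested in both genotypes (against 22.1% of all genes in phyAB and 23.2% in Col-0). Their median response was -1.18 in phyAB and -0.79 in Col-0. The fall was deeper in phyAB for 2 of the 10 by the test (against 1.88% of all genes with a more negative response). These were the pseudouridine synthase NAP57 (AT3G57150) at -0.498 ± 0.11 (SE, adjusted p = 0.0172) and NOP56 (AT1G56110), a protein of small nucleolar complexes, at -0.44 ± 0.12 (SE, adjusted p = 0.0445). The difference was below 0 for all 10, from -0.60 to -0.26. NAP57 had 51.2, 38.8 and 45.4 CPM in phyAB shoots at 27 °C and 117, 103 and 115 CPM in phyAB shoots at 21 °C. Col-0 libraries had 77.5, 71.5 and 71.2 CPM at 27 °C and 129.8, 131 and 125 CPM at 21 °C. No groups overlapped. The count of 2 was 4 without the phyAB 27 °C library numbered 1 or 3, 1 without any one of the Col-0 27 °C libraries, the Col-0 21 °C libraries numbered 2 or 3, the phyAB 21 °C libraries numbered 1 or 3 and the phyAB 27 °C library numbered 2, and 0 with all libraries numbered 3 left out.

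Photosynthesis genes were called about as often as all genes, 2 of 45 (4.44%, against 3.51%). Of the 45, 34 rose in each genotype, against 21.3% of all genes in phyAB and 22.5% in Col-0. The response was more positive for RBCS2B (AT5G38420), a Rubisco small subunit, by 0.56 ± 0.13 (SE, adjusted p = 0.0224), and more negative for the ferredoxin FED A (AT1G60950), at -0.44 ± 0.08 (SE, adjusted p = 0.00843). FED A had 1422, 1263 and 1328 CPM in phyAB shoots at 27 °C and 2493, 2269.7 and 2184 CPM in phyAB shoots at 21 °C. Its Col-0 levels were 2864, 2821 and 2821 CPM at 27 °C and 3613, 3738 and 3529.5 CPM at 21 °C. It fell in both genotypes, more in phyAB. RBCS2B has near-identical copies, so reads shared with them may be split or lost and its value is uncertain. Its call was lost in 5 of the 12 fits without a single library, those without the Col-0 21 °C library numbered 2, the Col-0 27 °C libraries numbered 2 or 3, the phyAB 21 °C library numbered 3 or the phyAB 27 °C library numbered 2. Without the Col-0 21 °C library numbered 3, 2 members were called in each direction. Of 21 chlorophyll and greening genes 2 were called (9.52%, against 3.51% of all genes), and GPRI1 (AT2G20570), the chloroplast regulator also called GLK1, was more positive by 0.69 ± 0.10 (SE, adjusted p = 0.00127), and CHLI2 (AT5G45930), a subunit of magnesium chelatase, had a more negative response, at -0.39 ± 0.08 (SE, adjusted p = 0.0146). GPRI1 had 109 ± 6.701 CPM in phyAB shoots at 27 °C and 97.7 ± 6.42 at 21 °C, against 79.7 ± 6.702 in Col-0 shoots at 27 °C and 115 ± 7.34 at 21 °C (SD, n = 3). It fell in Col-0 and did not pass in phyAB.

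Clock genes gave 1 call among 25 (4%, against 3.51% of all genes). RVE1 (AT5G17300), a morning factor that promotes auxin synthesis, had 27.7, 32.1 and 23.3 CPM in phyAB shoots at 27 °C and 26.2, 30.3 and 27.2 CPM in phyAB shoots at 21 °C. Col-0 shoots had 24.3, 27.5 and 23.2 CPM at 27 °C and 14.1, 8.21 and 8.44 CPM at 21 °C. It rose in Col-0 without overlap, its phyAB temperatures overlapped, and the difference was -1.28 ± 0.25 (SE, adjusted p = 0.0099). The morning factor LHY had 19.7, 13.5 and 9.09 CPM in phyAB shoots at 27 °C and 114, 85.4 and 54.3 CPM in phyAB shoots at 21 °C. The Col-0 values were 22.1, 9.75 and 4.85 CPM at 27 °C and 40.7, 27.4 and 18.7 CPM at 21 °C. In each of the 4 groups the library numbered 1 was the highest and that numbered 3 the lowest, and the difference of -1.34 ± 0.65 (SE, adjusted p = 0.286) did not pass. Of 14 nitrate genes 1 was more negative (7.14%, against 1.88% of all genes), the nitrate reductase NIA1 (AT1G77760), with 364, 344 and 334 CPM in phyAB shoots at 27 °C and 205, 338 and 328 CPM in phyAB shoots at 21 °C. In Col-0 shoots it had 483, 597 and 546 CPM at 27 °C and 188, 180.1 and 257 CPM at 21 °C. It rose in Col-0 without overlap, its phyAB change did not pass, and the difference was -1.12 ± 0.25 (SE, adjusted p = 0.0212). The nitrate count was 0 without any one of the Col-0 21 °C or 27 °C library numbered 2 and the phyAB 21 °C libraries numbered 2 or 3, where the NIA1 call was lost, and 2 without the phyAB 21 °C library numbered 1. Without the Col-0 27 °C library numbered 3, 1 nitrate gene was more positive. Of 19 abscisic acid genes 2 were called, against 3.51% of all genes. Of these 1 was more positive, the phosphatase ABI2 (AT5G57050) at 0.64 ± 0.15 (SE, adjusted p = 0.0226), and 1 more negative, the receptor PYL6 (AT2G40330) at -1.005 ± 0.18 (SE, adjusted p = 0.00511). The ABI2 call was lost without the Col-0 21 °C library numbered 1 or any one of the Col-0 27 °C libraries numbered 2 or 3, the phyAB 21 °C library numbered 1 and the phyAB 27 °C library numbered 3, and PYL6 was called in all 12 fits.

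Lists of salicylic acid and immunity (15 genes tested), cell cycle (22), flowering time (5), iron deficiency (18), seed storage (16) and root markers (12) had 0 members called in either direction by edgeR, and DESeq2 called 1 gene in flowering time, 1 among the root markers and 0 in the other 4. Over all genes edgeR called 3.51%. At an unadjusted p under 0.05 the counts were 2 for immunity, 2 for the cell cycle, 1 for flowering time, 4 for iron deficiency, 0 for seed storage and 5 for root markers, against 3715 of all 20100 genes. The iron deficiency count moved with 1 library. Without the Col-0 27 °C library numbered 1, 10 of 18 were called more positive in phyAB, against 416 of all 20293 genes in that fit. In that library the iron reductase FRO2 had 4.41 CPM, against 0.254 and 0.436 CPM in the other Col-0 libraries at 27 °C. The median iron response was -0.33 in phyAB and -0.59 in Col-0.

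**Figure D5:**
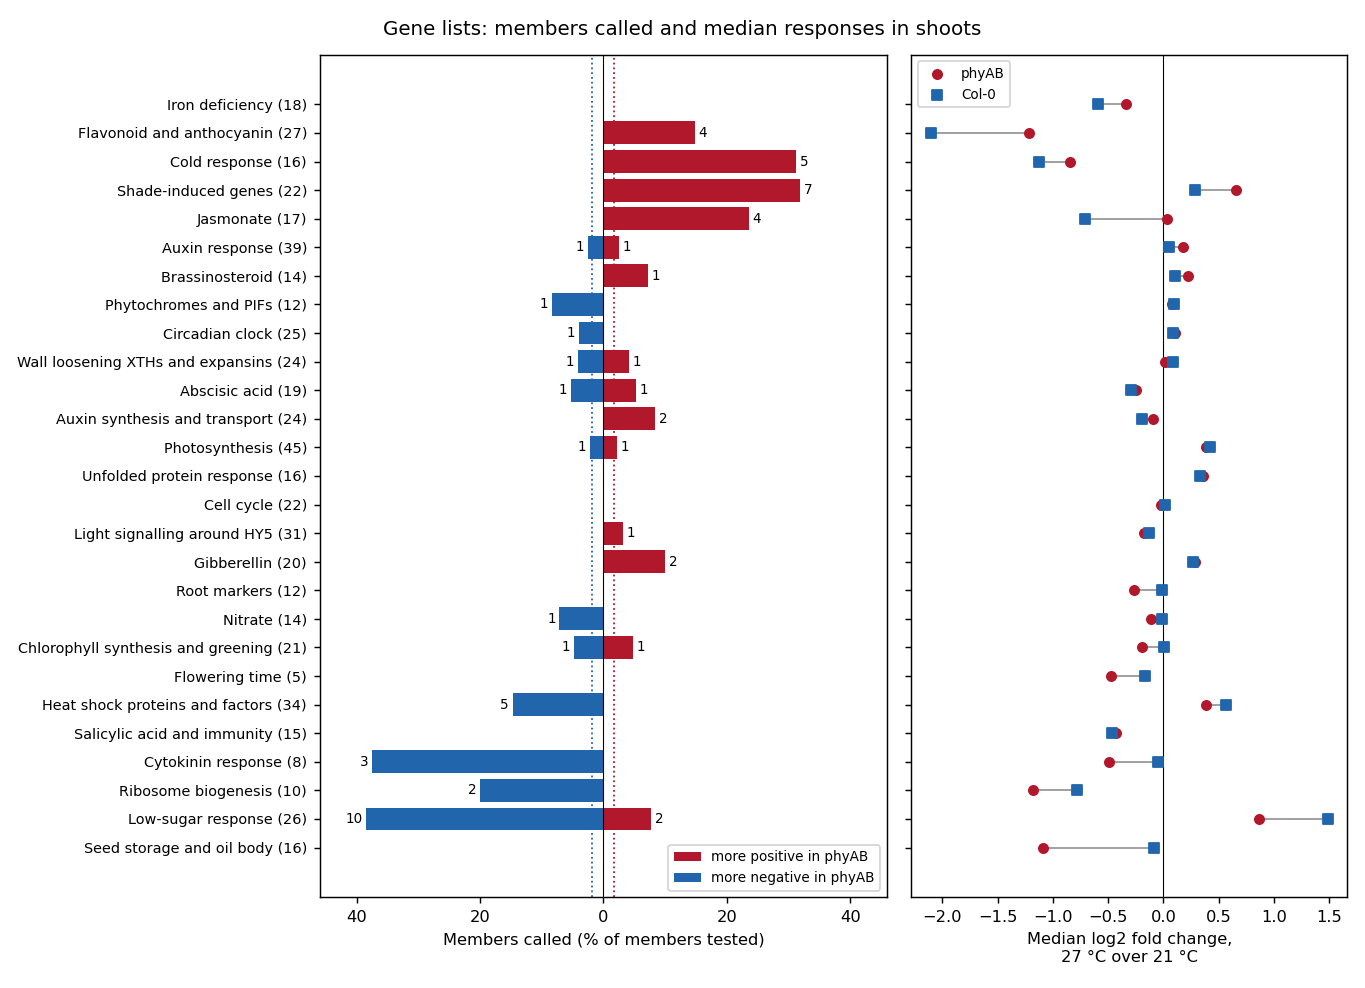
Left, share of tested members (number in brackets) of each of the 27 gene lists with a more positive (red) or more negative (blue) response in phyAB, with the number called at the bar and dotted lines at the shares of all genes (1.63% and 1.88%). Right, median log2 response of each list at 27 °C over 21 °C in phyAB (circles) and Col-0 (squares). Lists are ordered by median response difference, with iron deficiency, flavonoid, cold and shade lists at the top and the low-sugar and seed lists at the bottom. They were chosen with earlier results of these data known.

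Genes with the largest differences also lay outside these lists. Among genes with a symbol, a mean of at least 5 CPM in a group and a call, 362 in all, the 12 most positive included 3 genes of sulfur metabolism. LSU3 (AT3G49570), a small protein that marks low sulfur, had 7.04, 5.64 and 5.82 CPM in phyAB shoots at 27 °C and 4.21, 5.67 and 5.66 CPM in phyAB shoots at 21 °C. Levels in Col-0 were 2.31, 0.914 and 0.599 CPM at 27 °C and 4.699, 4.43 and 5.6 CPM at 21 °C. It fell in Col-0 and its phyAB temperatures overlapped, with a difference of 2.19 ± 0.39 (SE, adjusted p = 0.00564). APR3 (AT4G21990), the reductase that turns activated sulfate into sulfite, had 111, 102 and 100.1 CPM in phyAB shoots at 27 °C and 131, 151 and 135 CPM in phyAB shoots at 21 °C. In wild-type Col-0, levels were 57.6, 24.1 and 29.4 CPM at 27 °C and 189, 191 and 179.7 CPM at 21 °C. At 27 °C all phyAB libraries lay above all Col-0 libraries and at 21 °C all lay below, and the difference was 1.92 ± 0.29 (SE, adjusted p = 0.00176). SERAT3;2 (AT4G35640), a serine acetyltransferase on the way to cysteine, had a difference of 1.84 ± 0.40 (SE, adjusted p = 0.0169). The SERAT3;2 call was lost in 2 of the 12 fits without a single library, and those of LSU3 and APR3 in 0.

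Others of the 12 were AFP3 (AT3G29575), which binds a factor of abscisic acid signalling, with 11.2, 16.6 and 13.3 CPM in phyAB shoots at 27 °C and 13.01, 10.9 and 11.8 CPM in phyAB shoots at 21 °C. For Col-0 the values were 2.67, 3.76 and 3.103 CPM at 27 °C and 8.47, 10.4 and 7.32 CPM at 21 °C. It fell in Col-0 without overlap and its phyAB temperatures overlapped, with a difference of 1.66 ± 0.22 (SE, adjusted p = 0.000568). KAT5 (AT5G48880), a thiolase of fatty acid breakdown, fell in both genotypes and less in phyAB by 1.61 ± 0.21 (SE, adjusted p = 0.000467). BGLU1 (AT1G45191), a beta-glucosidase, and LTP3 (AT5G59320), a lipid transfer protein, fell in Col-0 and had differences of 1.67 ± 0.29 (SE, adjusted p = 0.00511) and 1.61 ± 0.31 (SE, adjusted p = 0.00833). Reads of LTP3 may be shared with related family members, and its value is uncertain for that reason.

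Among the 12 most negative, HMT3 (AT3G22740), which methylates homocysteine to methionine, had 0.412, 0.689 and 0.529 CPM in phyAB shoots at 27 °C and 1.148, 1.64 and 1.103 CPM in phyAB shoots at 21 °C. Col-0 libraries had 5.65, 6.14 and 5.28 CPM at 27 °C and 4.06, 5.46 and 3.88 CPM at 21 °C. It fell in phyAB without overlap and did not pass in Col-0, with a difference of -1.601 ± 0.29 (SE, adjusted p = 0.00564). CYP710A1 (AT2G34500), which makes stigmasterol, had 9.33, 8.52 and 10.4 CPM in phyAB shoots at 27 °C and 7.51, 8.86 and 10.8 CPM in phyAB shoots at 21 °C. Its Col-0 levels were 1.54, 2.28 and 2.23 CPM at 27 °C and 0.847, 0.5403 and 0.632 CPM at 21 °C. It rose in Col-0 to levels still below every phyAB library, with a difference of -1.499 ± 0.29 (SE, adjusted p = 0.00847). BXL2 (AT1G02640), a relative of BXL1, BT1 (AT5G63160), a scaffold protein of the BTB class, and AGT3 (AT2G38400), an aminotransferase, rose in both genotypes and less in phyAB. Their differences were -1.43 ± 0.18 (SE, adjusted p = 0.000467), -1.42 ± 0.31 (SE, adjusted p = 0.0195) and -1.35 ± 0.23 (SE, adjusted p = 0.0045). For all 3 genes the phyAB libraries at 21 °C lay above all Col-0 libraries at 21 °C. The BT1 call was lost in 3 of the 12 fits without a single library, and those of BXL2 and AGT3 in 0.

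In roots 44 of 21598 genes had a response difference between phyAB and Col-0, and in a model of all 36 libraries 22 genes (0.102%) had one that differed between shoots and roots. Among genes named above these were AFP3 and BR6OX2. The AFP3 difference was 1.66 ± 0.22 in shoots and 0.15 ± 0.19 in roots, and the 2 tissues differed by 1.49 ± 0.31 (SE, adjusted p = 0.0448). For BR6OX2 it was 0.78 ± 0.18 in shoots and -0.27 ± 0.15 in roots, a gap of 1.04 ± 0.21 (SE, adjusted p = 0.0417). Of the 22, SULTR3;5, a sulfate transporter, had log2 response differences of -1.147 in shoots and 1.01 in roots. The sucrose carrier SUC1 had 0.47 in shoots and -0.86 in roots, and the nitrilase NIT3 had 1.18 in shoots and 0.02 in roots. For genes outside the 22, a call in shoots does not show that roots differ. The phyAB root libraries numbered 3 carry a source name of shoot against their titles, and without them 22 genes passed, 14 of them among the first 22. The count moved with most libraries. Without single shoot libraries it was 2, 4 and 58 without the Col-0 27 °C libraries numbered 2, 3 and 1, and 67, 14 and 7 without the Col-0 21 °C libraries numbered 3, 1 and 2. It was 40 and 6 without the phyAB 27 °C libraries numbered 1 and 2, and 10 and 6 without the phyAB 21 °C libraries numbered 2 and 3. Without single root libraries it was 5, 10 and 14 for Col-0 21 °C numbers 2, 3 and 1, 14 for Col-0 27 °C numbers 1 and 3, 37 and 10 for phyAB 21 °C numbers 3 and 1, and 13 and 12 for phyAB 27 °C numbers 1 and 3.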

How the data were processed

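RNA-seq of roots and shoots of phyAB, hy5 and Col-0 seedlings was deposited as 1 table per library, with whole-number read counts per gene that the authors had not normalized. Per the submitters' processing notes, FastQC, TopHat2, HTSeq and edgeR were used with the TAIR10 genome; the sources used here give no versions, annotation or strand setting, and reads of overlapping and antisense genes cannot be told apart. Each table held 32833 genes and 5 summary rows, which entered neither library sizes nor tests. Gene names came from RefSeq TAIR10.1, where 32548 IDs matched.

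From these counts, edgeR 4.0.16 in R 4.3.3 fitted the 18 shoot libraries with 1 mean per group (TMM scaling, filterByExpr, quasi-likelihood test, Benjamini-Hochberg adjusted p under 0.05). The response difference is the interaction contrast, SE is the size of the log2 change over the root of its F value, and CPM is on the TMM scale. The same model on 36 libraries compared shoots with roots. Scripts were tested on simulated data. The alternatives were DESeq2 1.42.0, other scaling and filters, the 12 libraries alone, a block and leaving out libraries. Median ratios of lists used log2(CPM + 0.5).

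Named genes were PHYA and PHYB, the 12 most positive and 12 most negative differences among called genes with a symbol and a mean of at least 5 CPM in 1 group, and up to 4 called genes per list. Further called members and genes that did not pass were named after their values were seen. The members and all 27 lists were chosen with earlier results of these data known. Of 595 list entries 17 were left out, where the name was not matched in the reference. Depth gave 17387180 to 23880472 counted reads per library.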

Additional observations from a re-analysis of the deposited data

Results flagged for a closer look

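The difference between phyAB and Col-0 in the shoot response to 27 °C was itself tested, and 706 genes passed. In 22 genes that difference passed a test of shoots against roots. This count was 2 to 67 without single libraries and 161 with DESeq2. For AFP3 the log2 response difference in shoots exceeded that in roots by 1.49 (adjusted p = 0.0448 by edgeR), and for BR6OX2 by 1.04 (adjusted p = 0.0417 by edgeR). Both were drawn out by the test of the tissue difference, and no explanation of them was tested.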

How the results depend on the processing

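The replicate numbers were not taken to pair the libraries, since same-numbered libraries deviated together only in part: their deviations from the group means correlated from -0.133 to 0.369, over 0.1 in 9 of 18 pairs. All 3 pairs of phyAB with Col-0 at 27 °C were over 0.1 (0.239, 0.16 and 0.369), and 14 of 18 correlated best with their own number, a hint from the data that the design does not give. With a replicate block 1305 genes had a response difference between phyAB and Col-0, including all 706, and 102 genes differed between shoots and roots. Without the libraries numbered 3 of every shoot group 331 genes passed, 244 of them among the 706, and leaving out single libraries gave 273 to 798 genes. It was 533 with the 12 libraries alone, 695 with RLE scaling, 636 without a filter, 754 at a minimum of 5 CPM and 789 with DESeq2. The shoot and root count of 22 was 46 without a filter, 161 with DESeq2, 26 with RLE scaling, and 2 to 67 without single libraries. The median Col-0 response of genes that rose in hy5 was 0.35 at a minimum of 5 CPM, against 0.38. Of 85 genes given a value under each setting 0 changed sign, and 33 of 83 called genes passed in every setting that gave an adjusted p. The causes of these shifts were not tested. Genes under 1 CPM rest on few reads.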

Other observations

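A list of 24 genes of sulfate uptake and assimilation was put together after LSU3, APR3 and SERAT3;2 had been seen, so its counts are a description with no test of the list. Of 23 tested, 2 rose and 10 fell at 27 °C in phyAB shoots, against 0 that rose and 20 that fell in Col-0 shoots. Among all genes 21.3% rose and 22.1% fell in phyAB, and 22.5% rose and 23.2% fell in Col-0. The response was more positive in phyAB for 9 (against 1.63% of all genes) and more negative for 0. The 9 include LSU3, APR3 and SERAT3;2, the genes that prompted the list. Of the 9 calls, that of SIR was lost in 4, that of SERAT3;2 in 2 and that of APR1 in 1 of the 12 fits without a single library. The rest were lost in 0. The list left out the sulfate transporter SULTR3;5, whose shoot response was more negative in phyAB, with a log2 difference of -1.147 (adjusted p = 0.0004675 by edgeR). SULTR4;2, which exports sulfate from the vacuole, had 19.2, 17.7 and 17.0 CPM in phyAB shoots at 27 °C and 15.5, 15.9 and 12.7 CPM in phyAB shoots at 21 °C. Col-0 shoots had 7.49, 5.94 and 6.21 CPM at 27 °C and 14.4, 13.7 and 12.8 CPM at 21 °C. It rose in phyAB and fell in Col-0, with a log2 difference of 1.35 ± 0.15 (SE, adjusted p = 0.000162 by edgeR). The Col-0 27 °C library numbered 1 was the highest of its group for SULTR4;2, APR1, APR2 and LSU1, and LSU1 had 7.95 CPM there, against 1.98 and 1.31 CPM in the other Col-0 libraries at 27 °C.

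A list of 18 genes that make aliphatic glucosinolates, sulfur-rich defence compounds, was likewise chosen after values were seen. In phyAB 0 rose and 15 fell at 27 °C, against 0 and 8 in Col-0, where the shares of all genes that fell were 22.1% in phyAB and 23.2% in Col-0. The difference was below 0 for all 18 and passed the test for 4 (against 1.88% of all genes), BCAT4, CYP79F1, IMD1 and MAM1. The CYP79F1 call was lost in 6 and the MAM1 call in 4 of the 12 fits without a single library. BCAT4, which starts the chain elongation of methionine, had 26.03, 25.4 and 21.3 CPM in phyAB shoots at 27 °C and 52.6, 49.1 and 40.9 CPM in phyAB shoots at 21 °C. Col-0 shoots had 93.5, 101 and 97.2 CPM at 27 °C and 95.1, 98.2 and 83.7 CPM at 21 °C. It fell in phyAB without overlap and its Col-0 temperatures overlapped, with a log2 difference of -1.04 ± 0.14 (SE, adjusted p = 0.000803 by edgeR).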
